A study of Arabidopsis thaliana and Solanum lycopersicum with 40 samples.

Results

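Roots of tomato seedlings (Solanum lycopersicum, cultivar M82) that had spent 24 h in shade were compared with roots of seedlings kept unshaded for the same 24 h. The comparison used 4 of the 16 tomato libraries of the series, 2 from shaded and 2 from unshaded seedlings, and the genes with a mean of at least 1 FPKM over all 16 libraries, which were 20413 of the 34075 in the deposited table. FPKM is the number of sequenced fragments per kilobase of transcript, scaled to the number of mapped fragments in the library. Per the labels, every seedling had first grown for 7 days in white light on agar plates of half-strength MS medium, roots were harvested, and a column kit was used for RNA. The other tomato libraries were shaded and unshaded roots at 3 h, 6 h and 12 h, with 2 libraries in each group. No label describes the spectrum or intensity of the shade, whether the roots themselves were shaded, or whether the 2 libraries of a group came from separate plates or plants. The p-values therefore measure the spread between these libraries, which may be technical.

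Shade cast by neighbouring plants lowers light intensity and the ratio of red to far-red light, which plants sense with phytochromes. In stems and leaf stalks of many species this raises growth hormone signalling, wall loosening and elongation. Roots depend on sugar sent from the shoot, and in them an active meristem needs histones, cyclins and ribosomes while elongating and maturing cells remodel walls made of cellulose, xyloglucan and hydroxyproline-rich proteins.

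The 24 h libraries were similar in relative depth and in summed FPKM, which does not measure library size. FPKM summed to 998376 and 934601 in the shaded libraries, against 942918 and 944277 in the unshaded libraries. Their depth relative to the geometric mean of the 16 tomato libraries, read from the steps between low values, was 1.22 and 1.10 in shade and 1.17 and 1.29 without shade, within a range of 0.667 to 1.48 over all tomato libraries. At 24 h replicates were less alike in shade: 1041 genes differed at least 2-fold between the shaded libraries, against 413 between the unshaded libraries. In the same order, such genes numbered 461 and 394 at 3 h, 412 and 1181 at 6 h, and 361 and 986 at 12 h. Pearson's r across genes at 24 h was 0.965 in shade against 0.980 without it. Root markers were present, since none of the 7 genes described as Casparian strip membrane proteins, which mark the root endodermis, was at 0 in all 4 libraries, and their summed level was 362 and 209 FPKM in shaded roots, against 178 and 211 FPKM in unshaded roots. Green-tissue genes were in part at 0 and in part not. Summed levels were 3636 and 3717 FPKM in shaded roots, against 4082 and 4742 FPKM in unshaded roots, for 170 photosystem and chlorophyll-binding genes, of which 89 were at 0 in all 4 libraries. For 18 Rubisco and Calvin cycle genes, 11 of them at 0, the sums were 230 and 298 FPKM in shaded roots, against 379 and 507 FPKM in unshaded roots. The 3 genes described as Rubisco small subunits summed to 0.111 and 0.124 FPKM in shaded roots, against 0.232 and 0.211 FPKM in unshaded roots, and 2 of the 3 were at 0 in all 4 libraries. In bulk root samples, fewer cells of a type and less RNA per cell cannot be told apart.

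After 24 h the transcriptomes differed widely. limma called 7611 of the 20413 genes (37.3%) at a Benjamini-Hochberg adjusted p under 0.05, of which 3243 (15.9% of those tested) rose and 4368 (21.4%) fell in shaded roots. A change of at least 2-fold was found for 958 of the genes that rose and 1429 of those that fell. In every called gene the shaded and unshaded libraries did not overlap, and the same held for 14838 (72.7%) of all genes tested. The median log2 fold change, shaded minus unshaded on the log2(FPKM + 1) scale, was -0.03 over all genes tested. Shaded library 1 lay farther from the unshaded mean than shaded library 2 in 6325 (83.1%) of the called genes, and the median ratio of the difference in library 2 to that in library 1 was 0.72. The count of calls was 3339 without shaded library 1, 7544 without shaded library 2, 4748 without unshaded library 1 and 3895 without unshaded library 2, and a fit to the 24 h groups alone called 4164. For 1 gene taken alone, 2 against 2 libraries allow no two-sided exact permutation p under 0.33, so calls rest on the spread that limma shares across genes and groups.

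In what follows, each gene is given with its level in shaded libraries 1 and 2 and then in unshaded libraries 1 and 2, in FPKM. Changes are log2 fold changes of log2(FPKM + 1), shaded minus unshaded, with the standard error and adjusted p from limma (n = 2 libraries each). On this scale the change of a gene with low values comes out too small.

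Among described genes above 0 in all 4 libraries, the largest rises were in a homeobox-leucine zipper transcription factor, an F-box protein, a defensin-like peptide and a set of cell wall proteins. The homeobox-leucine zipper gene Solyc07g062790.1, annotated as HOX6, had 66.1 and 51.5 FPKM in shaded roots, against 1.16 and 0.234 FPKM in unshaded roots, a change of 5.18 ± 0.40 (adjusted p = 0.00017). Solyc10g052650.3, an F-box protein, a class that picks proteins for ubiquitination, had 33.7 and 28.7 FPKM in shaded roots, against 1.62e-06 and 3.73e-06 FPKM in unshaded roots. Its unshaded level is close to 0, so that the size of its change depends on the pseudocount: it was 5.00 with a pseudocount of 1 and 8.28 with 0.1. In both genes the shaded libraries were far above the unshaded ones and close to each other.

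The defensin-like protein 19 gene Solyc07g009030.3, of a family of small antimicrobial peptides, had 168 and 56.7 FPKM in shaded roots, against 2.71 and 4.93 FPKM in unshaded roots (4.39 ± 0.70, adjusted p = 0.0017). Solyc08g080670.1, described as a pathogenesis-related 5-like protein, the thaumatin-like class of defence proteins, had 497 and 506 FPKM in shaded roots, against 39.5 and 40.6 FPKM in unshaded roots (3.62 ± 0.15, adjusted p = 1.4e-06). The defensin-like gene was far higher in shaded library 1 than in shaded library 2, whereas the replicates of the pathogenesis-related gene nearly coincided. The other 6 of the 10 largest rises were 4 extensins, an expansin-like gene and a xyloglucan endotransglucosylase/hydrolase, given with the wall genes. Of the rises without a product description, Solyc12g077360.1 had 249 and 143 FPKM in shaded roots, against 19.2 and 15.3 FPKM in unshaded roots (3.38 ± 0.53, adjusted p = 0.0015), and Solyc01g107220.2 had 82.0 and 66.4 FPKM in shaded roots, against 6.99 and 5.31 FPKM in unshaded roots (3.40 ± 0.63, adjusted p = 0.0028).

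**Figure D1:**
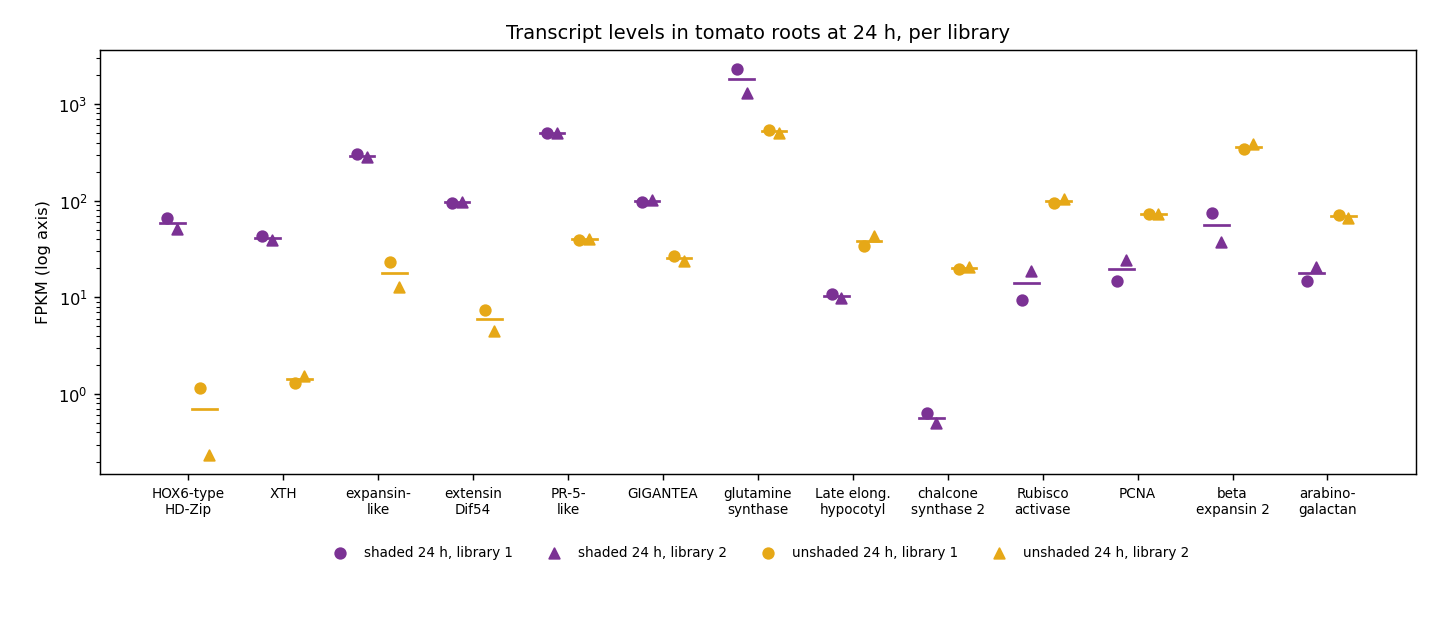
Transcript level in FPKM (log axis) of 13 genes in each 24 h library, shaded libraries in purple on the left and unshaded libraries in yellow on the right of each gene, circles for library 1, triangles for library 2 and bars for the mean of both. The shaded libraries lie above the unshaded ones in the 7 genes on the left and below them in the 6 genes on the right, with no overlap.

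Among described genes above 0 in all 4 libraries, the largest falls were in flavonoid enzymes, glycosyltransferases, lipid-transfer-type proteins and an acyltransferase. Solyc05g053550.3, chalcone synthase 2, which makes the first intermediate of the flavonoid pathway, had 0.643 and 0.50 FPKM in shaded roots, against 19.5 and 20.6 FPKM in unshaded roots (-3.74 ± 0.36, adjusted p = 0.0005). Solyc08g014490.1, an HXXXD-type acyltransferase, had 2.73 and 2.44 FPKM in shaded roots, against 49.2 and 29.4 FPKM in unshaded roots (-3.45 ± 0.47, adjusted p = 0.001). The defensin SD2 gene Solyc04g008470.3 had 3.00 and 8.89 FPKM in shaded roots, against 70.3 and 55.6 FPKM in unshaded roots (-3.34 ± 0.41, adjusted p = 0.00086), so that defensin genes were found among both the largest rises and the largest falls. A larger fall, -4.78 ± 1.05, was that of Solyc07g043400.1, which has no product description and had 4.5 and 131 FPKM in shaded roots, against 733 and 750 FPKM in unshaded roots, and it was -2.49 without shaded library 1.

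Some of the largest falls differed widely between the shaded libraries. Solyc03g091000.1, described as a lipid-transfer and seed storage 2S albumin superfamily protein, had 1.57 and 41.2 FPKM in shaded roots, against 115 and 178 FPKM in unshaded roots (-3.79 ± 0.92, adjusted p = 0.0092). Its change was -1.77 without shaded library 1 and -5.81 without shaded library 2, and its call was lost without unshaded library 2. Solyc03g090990.1, with the same description and a near-consecutive identifier, changed by -3.64 ± 0.87, or -1.98 without shaded library 1, and lost its call without that library or unshaded library 2. The glycosyltransferase Solyc12g098590.3 was near 0 in both shaded libraries, at 0.0295 and 0.0328 FPKM, against 7.88 and 10.4 FPKM in unshaded roots, and its change was -3.28 with a pseudocount of 1 and -6.12 with 0.1. Deoxyhypusine synthase, which starts the hypusine modification of a translation factor, is the description of Solyc02g080790.4, with 3.75 and 0.80 FPKM in shaded roots, against 29.5 and 29.9 FPKM in unshaded roots (-3.39 ± 0.40). Of the other 3, the oxygenase Solyc06g073580.4 (-3.66 ± 0.88) lost its call without shaded library 1 or unshaded library 1, whereas the chalcone synthase Solyc05g053170.3 (-3.45 ± 0.70) and the glycosyltransferase Solyc07g043480.1 (-3.27 ± 0.69) kept theirs without any 1 library, the glycosyltransferase at -1.80 without shaded library 1. A further pair of genes was listed at 0 in both shaded libraries. The pentatricopeptide repeat gene Solyc01g020350.1, of a class that processes organelle RNA, was at 8.71 and 7.92 FPKM in unshaded roots. Solyc06g053510.3, described as putrescine N-methyltransferase, was at 6.59 and 6.75 FPKM in unshaded roots, and its call was lost in each of the 4 fits without 1 library. No gene was listed at 0 in both unshaded libraries and at 5 FPKM or more in both shaded libraries.

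Gene groups were drawn up by words in the deposited descriptions, 45 in all, and each count below is to be read against the shares of all genes tested that rose (15.9%) and fell (21.4%). The genes of protein synthesis and cell division were lower in shade in far larger shares than all genes.

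**Figure D2:**
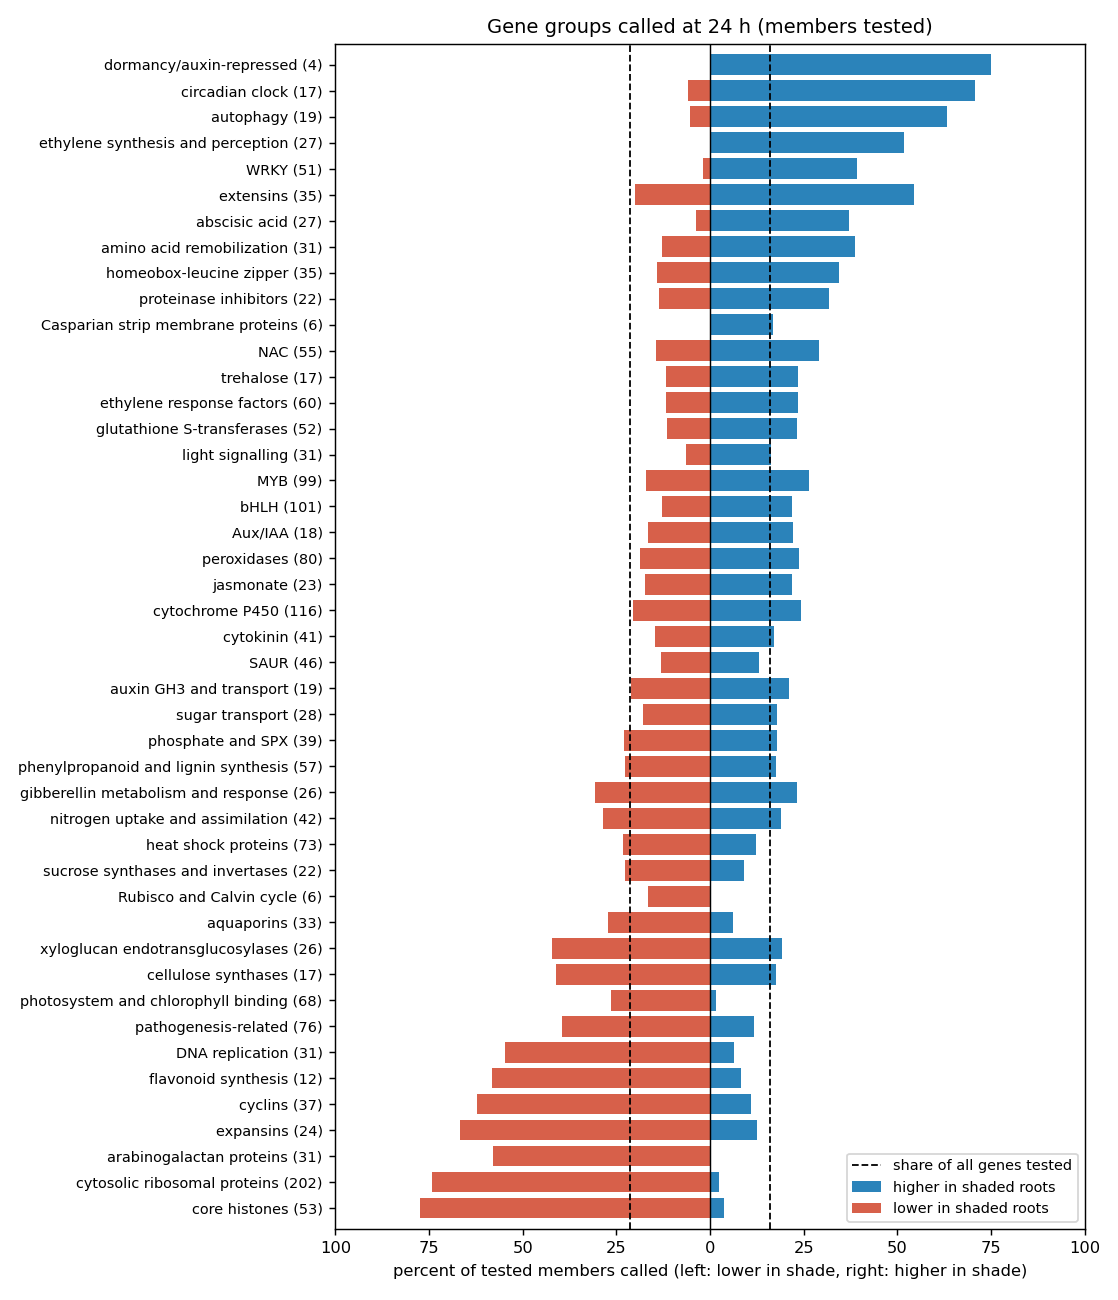
Percent of the tested members of each of the 45 gene groups that were called higher (blue, right) or lower (red, left) in shaded roots at 24 h, with the number tested in parentheses and dashed lines at the shares of all genes tested, 15.9% higher and 21.4% lower. Core histones, cytosolic ribosomal proteins and arabinogalactan proteins lie at the bottom with most calls lower, and clock, autophagy and ethylene genes lie near the top with most calls higher.

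Cytosolic ribosomal proteins build the ribosomes that translate nuclear messages. Of 202 such genes tested (243 in the table), 150 fell and 5 rose, and their median log2 fold change was -0.71 against -0.03 for all genes. The median difference from the unshaded mean was -0.82 in shaded library 1 and -0.58 in shaded library 2. The strongest fall was in Solyc01g103510.4, which encodes 60S protein L3, with 21.1 and 32.1 FPKM in shaded roots, against 70.7 and 73.0 FPKM in unshaded roots (-1.43 ± 0.19, adjusted p = 0.001). Solyc05g052810.4, for L35a, had 45.1 and 72.3 FPKM in shaded roots, against 128 and 151 FPKM in unshaded roots (-1.27 ± 0.24, adjusted p = 0.003). In both genes shaded library 1 was the lowest and neither unshaded library came near the shaded ones. The 3 named rises were all described as L18a-like, led by Solyc12g011440.2 with 176 and 118 FPKM in shaded roots, against 58.1 and 54.7 FPKM in unshaded roots (1.34 ± 0.25, adjusted p = 0.0028). They entered the group by their description, and whether L18a-like proteins are parts of the ribosome was not tested. Rises numbered 2 or 3 without shaded library 1 or either unshaded library. The count of falls was 51 without shaded library 1 and 67 without unshaded library 2, against 114 without unshaded library 1 and 142 without shaded library 2. Reads of near-identical copies may have been split between the members of this family and of the histones, which was not tested.

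Core histones package new DNA and are made mostly while DNA is copied. Of 53 tested (82 in the table), 41 fell and 2 rose, with a median of -1.17, and the fall was nearly as large in shaded library 2 (-0.99) as in shaded library 1 (-1.31). The histone H4 gene Solyc06g072240.1 had 14.5 and 31.1 FPKM in shaded roots, against 65.3 and 92.3 FPKM in unshaded roots (-1.82 ± 0.36, adjusted p = 0.0036). Solyc11g007930.1, a histone H2B gene, had 14.7 and 23.6 FPKM in shaded roots, against 59.8 and 77.1 FPKM in unshaded roots (-1.81 ± 0.27, adjusted p = 0.0013). An H3 gene went the other way: Solyc04g011750.3 had 227 and 174 FPKM in shaded roots, against 65.3 and 76.3 FPKM in unshaded roots (1.48 ± 0.18, adjusted p = 0.00084). Between 35 and 40 histone genes were called lower when any 1 of the 4 libraries was left out, and 1 was called higher without shaded library 1 or unshaded library 2.

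Cyclins, many of which drive the cell cycle through their kinases, fell in 23 of 37 tested genes and rose in 4 (median -0.69). The group was matched by description, and whether each member acts in cell division was not tested. Cyclin D4 (Solyc11g010460.3), of the class that admits cells to the cycle, had 0.855 and 2.56 FPKM in shaded roots, against 7.99 and 8.44 FPKM in unshaded roots (-1.84 ± 0.30, adjusted p = 0.0017). Cyclin A3 (Solyc04g078310.3) had 1.65 and 3.18 FPKM in shaded roots, against 6.52 and 7.54 FPKM in unshaded roots (-1.27 ± 0.23, adjusted p = 0.0026). The 3 named rises were described as cyclin1_1 (Solyc06g083260.3, 0.63 ± 0.12), cyclinT1_2 (Solyc07g032480.3, 0.62 ± 0.15) and cyclin (Solyc11g030550.3, 0.61 ± 0.19), and the call of cyclinT1_2 was lost without shaded or unshaded library 1 and that of Solyc11g030550.3 without shaded library 1 (0.36) or unshaded library 2. Rises numbered 2 without shaded library 1, and falls 12 without shaded library 1 and 13 without unshaded library 2.

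DNA replication genes fell in 17 of 31 tested and rose in 2 (median -0.53). Proliferating cell nuclear antigen (Solyc06g076660.3), the clamp that holds polymerases on DNA, had 14.6 and 24.4 FPKM in shaded roots, against 72.0 and 72.7 FPKM in unshaded roots (-1.88 ± 0.27, adjusted p = 0.0012). The ribonucleotide reductase gene Solyc02g094160.1, which supplies deoxynucleotides, had 17.3 and 27.4 FPKM in shaded roots, against 71.9 and 69.6 FPKM in unshaded roots (-1.65 ± 0.26, adjusted p = 0.0016). MCM7, a helicase subunit encoded by Solyc01g079500.4, fell as well (-1.23 ± 0.19, adjusted p = 0.0013). A gene described as DNA polymerase epsilon catalytic subunit A, Solyc04g080540.2, was instead at 338 and 427 FPKM in shaded roots, against 86.8 and 83.5 FPKM in unshaded roots (2.14 ± 0.29, adjusted p = 0.001). In each of these genes the replicates lay closer together than the groups. The group had 11 falls and 1 rise without shaded library 1, and the same without unshaded library 2.

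**Figure D3:**
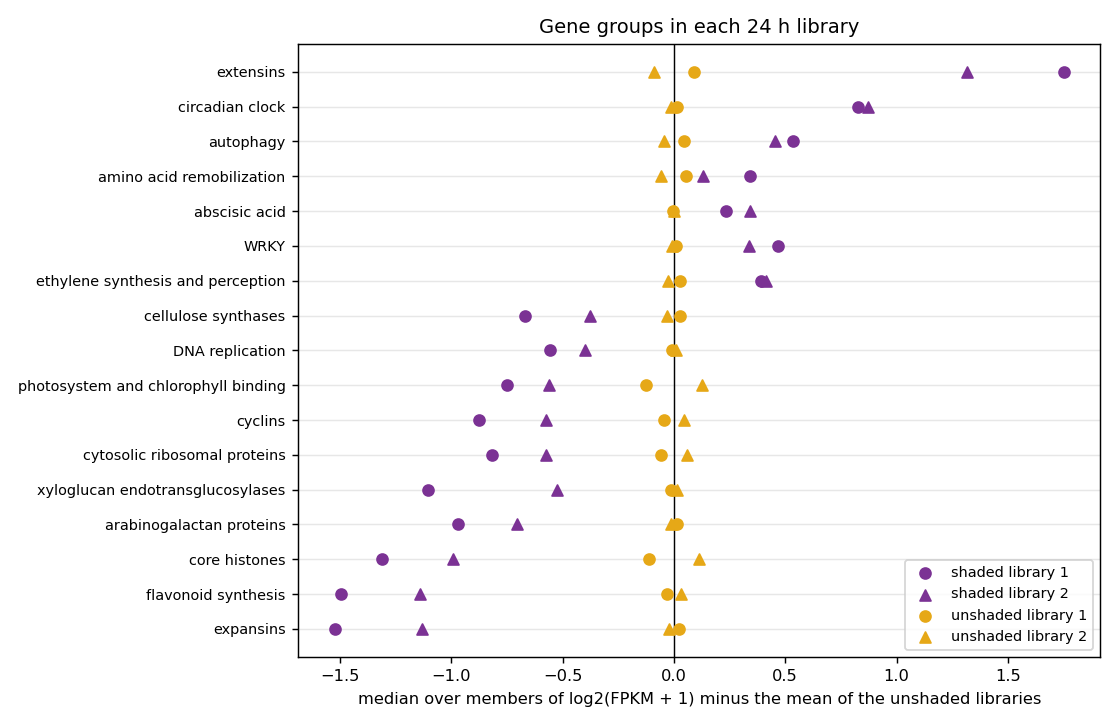
Median over the members of each gene group of log2(FPKM + 1) minus the mean of the unshaded libraries, in each of the 4 libraries at 24 h, shaded in purple and unshaded in yellow. Both shaded libraries lie on the same side of 0 in every group shown, and shaded library 1 lies farther out, as in expansins (-1.52 and -1.13), except in clock genes (0.83 and 0.87), abscisic acid genes (0.23 and 0.34) and ethylene genes (0.39 and 0.41).

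Cell wall genes split by class. Expansins, which loosen walls so that cells can extend, fell in 16 of 24 tested genes and rose in 3 (median -1.45). The beta expansin Solyc03g093390.4 had 74.7 and 37.2 FPKM in shaded roots, against 342 and 384 FPKM in unshaded roots (-2.76 ± 0.51, adjusted p = 0.0028). Expansin 8 (Solyc12g089380.2) had 2.87 and 12.8 FPKM in shaded roots, against 34.8 and 39.9 FPKM in unshaded roots (-2.39 ± 0.43), or -1.47 without shaded library 1. The expansin-like gene Solyc08g077900.3, in contrast, had 305 and 281 FPKM in shaded roots, against 23.1 and 12.7 FPKM in unshaded roots (4.01 ± 0.45, adjusted p = 0.00076). Solyc08g080060.4, described as expansin, had 50.3 and 59.0 FPKM in shaded roots, against 10.6 and 9.99 FPKM in unshaded roots (2.30 ± 0.45, adjusted p = 0.0035). Falls numbered 11 without shaded library 1 and 13 without either unshaded library.

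Xyloglucan endotransglucosylases, which cut and rejoin the xyloglucan between cellulose fibres, fell in 11 of 26 tested genes and rose in 5 (median -0.86, or -0.52 without shaded library 1). The 3 largest rises carried the near-consecutive identifiers Solyc12g007250.1, Solyc12g007260.2 and Solyc12g007270.3, and reads shared between them may have been split, which was not tested. Solyc12g007260.2 had 42.7 and 38.9 FPKM in shaded roots, against 1.32 and 1.52 FPKM in unshaded roots (4.11 ± 0.60, adjusted p = 0.0012), and Solyc12g007250.1 had 114 and 89.2 FPKM in shaded roots, against 8.99 and 8.07 FPKM in unshaded roots (3.42 ± 0.63, adjusted p = 0.0027). Among the falls, Solyc12g011023.1 had 2.75 and 2.42 FPKM in shaded roots, against 16.8 and 11.6 FPKM in unshaded roots (-2.07 ± 0.31, adjusted p = 0.0013). Rises numbered 3 and falls 6 in the fit to the 24 h groups alone and 7 without unshaded library 2.

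Cellulose synthases fell in 7 of 17 tested genes and rose in 3 (median -0.52). Solyc04g071650.4, with the highest level among those named, had 56.0 and 71.7 FPKM in shaded roots, against 139 and 140 FPKM in unshaded roots (-1.13 ± 0.23, adjusted p = 0.0042). Solyc03g005450.3 had 35.0 and 42.1 FPKM in shaded roots, against 16.7 and 16 FPKM in unshaded roots (1.19 ± 0.15, adjusted p = 0.00097). Falls numbered 4 without shaded library 1, and 1 rise was called without unshaded library 2.

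Extensins and arabinogalactan proteins, both hydroxyproline-rich wall glycoproteins, moved in opposite directions. Of 35 extensins tested (61 in the table), 19 rose and 7 fell, with the highest median of the 45 groups, 1.54. Solyc01g005850.2, extensin-like protein Dif54, had 95.3 and 97.0 FPKM in shaded roots, against 7.39 and 4.54 FPKM in unshaded roots (3.83 ± 0.63, adjusted p = 0.0019). Solyc04g071080.2 had 49.8 and 43.7 FPKM in shaded roots, against 2.82 and 1.99 FPKM in unshaded roots (3.82 ± 0.54, adjusted p = 0.0011). Dif10 (Solyc01g097720.1) and a further Dif54 gene (Solyc03g082790.4) rose by 3.63 ± 0.72 and 3.60 ± 0.54. The leucine-rich repeat extensin Solyc01g065510.3, a wall protein with a receptor-like repeat domain, fell to 6.62 and 9.91 FPKM in shaded roots, against 23.9 and 28.0 FPKM in unshaded roots (-1.56 ± 0.21, adjusted p = 0.001). Rises numbered 8 without shaded library 1 and 9 without unshaded library 2, and falls 4 without either unshaded library.

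Of 31 arabinogalactan proteins, which are heavily glycosylated proteins of the cell surface, 18 fell and none rose (median -0.87). Solyc07g053640.1 had 14.9 and 20.8 FPKM in shaded roots, against 70.8 and 66.8 FPKM in unshaded roots (-1.91 ± 0.29, adjusted p = 0.0014). The fasciclin-like member Solyc10g005960.1 had 19.9 and 29.0 FPKM in shaded roots, against 77.7 and 79.4 FPKM in unshaded roots (-1.67 ± 0.17, adjusted p = 0.00056). Neither gene overlapped between groups, which held for every called gene. The falls numbered 11 without shaded library 1. Peroxidases, which cross-link wall polymers and use hydrogen peroxide, were split, with 19 rises and 15 falls among 80 tested. Solyc11g007210.3 had 35.0 and 23.6 FPKM in shaded roots, against 2.42 and 1.91 FPKM in unshaded roots (3.23 ± 0.50, adjusted p = 0.0014), and Solyc03g044100.4 had 5.61 and 8.28 FPKM in shaded roots, against 21.2 and 21.8 FPKM in unshaded roots (-1.52 ± 0.18, adjusted p = 0.00079). Peroxidase rises numbered 10 without shaded library 1 and 12 without unshaded library 2, and falls 7 without shaded library 1 and 6 without either unshaded library.

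Clock genes, which keep daily time, were mostly higher in shade. Of 17 tested (20 in the table), 12 rose and 1 fell (median 0.85). GIGANTEA (Solyc12g056650.2), a clock protein of the evening, had 96.6 and 102 FPKM in shaded roots, against 26.5 and 24.1 FPKM in unshaded roots (1.93 ± 0.14, adjusted p = 0.00015). The pseudo-response regulator described as APRR7 (Solyc10g086000.3), which in Arabidopsis represses morning clock genes, had 13.3 and 16.6 FPKM in shaded roots, against 7.39 and 6.70 FPKM in unshaded roots (0.98 ± 0.16, adjusted p = 0.0017). The fall was in Late elongated hypocotyl (Solyc10g005080.3), a morning transcription factor, with 10.8 and 9.88 FPKM in shaded roots, against 34.1 and 42.6 FPKM in unshaded roots (-1.79 ± 0.19, adjusted p = 0.00056). Leaving out any 1 library kept this fall, and the number of rises was 8 without unshaded library 1, against 10 or 11 without any other.

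Genes of light perception showed few calls, 5 higher and 2 lower of 31 tested. Phytochrome A (Solyc10g044670.3), the photoreceptor of far-red light, had 128 and 139 FPKM in shaded roots, against 76.4 and 88.4 FPKM in unshaded roots (0.69 ± 0.15, adjusted p = 0.0058). The B-box zinc finger gene Solyc01g110180.4, of a family of light-signalling regulators, had 9.07 and 4.03 FPKM in shaded roots, against 0.457 and 0.594 FPKM in unshaded roots (2.22 ± 0.43, adjusted p = 0.0033), and Solyc01g110370.4 of the same family fell (-1.08 ± 0.11, adjusted p = 0.00056). The number of rises was 2 without shaded library 1 or unshaded library 2 and 3 without unshaded library 1, which left 1 fall.

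Homeobox-leucine zipper factors, some of which are early shade-response genes in Arabidopsis shoots, rose in 12 of 35 tested genes and fell in 5, while their median was 0.09. Beside Solyc07g062790.1, Solyc02g077590.1 had 29.2 and 21.8 FPKM in shaded roots, against 1.11 and 3.13 FPKM in unshaded roots (3.15 ± 0.39, adjusted p = 0.00088). Solyc03g082550.3, also described as HOX6, had 56.1 and 47.5 FPKM in shaded roots, against 13.7 and 11.1 FPKM in unshaded roots (1.98 ± 0.19, adjusted p = 0.0005). The member described as HAT4 (Solyc08g078300.4) fell to 19.4 and 25.9 FPKM in shaded roots, against 38.4 and 41.2 FPKM in unshaded roots (-0.80 ± 0.20, adjusted p = 0.01), a call that was lost without shaded library 1 or unshaded library 2. The 3 rises named here kept their calls without any 1 library. Rises in the group numbered 7 without shaded library 1, and falls 2 without unshaded library 2.

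Genes of photosynthesis that passed the filter had a lower median in shade than all genes. Of 170 photosystem and chlorophyll-binding genes in the table, 68 were tested, 18 fell and 1 rose, and the group's median was -0.66. Chlorophyll a-b binding protein Solyc12g011280.2, of the light-harvesting antenna, had 0.818 and 0.707 FPKM in shaded roots, against 5.32 and 7.35 FPKM in unshaded roots (-2.04 ± 0.42, adjusted p = 0.0045). Rubisco activase (Solyc09g011080.3), which reopens inhibited Rubisco, had 9.49 and 18.8 FPKM in shaded roots, against 94.3 and 103 FPKM in unshaded roots (-2.79 ± 0.41, adjusted p = 0.0013), and it was the only call among 6 tested Rubisco and Calvin cycle genes. The number of photosystem falls moved with single libraries, to 3 without shaded library 1, 10 without shaded library 2, 6 without unshaded library 1 and 2 without unshaded library 2, and was 29 in the fit to the 24 h groups alone.

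Flavonoids are phenolic pigments and signals whose synthesis is induced by light in many tissues. Of 12 pathway genes tested, 7 fell and 1 rose (median -1.32), and these counts were the same without any 1 of the 4 libraries. Dihydroflavonol 4-reductase (Solyc02g085020.4), of the branch to anthocyanins, had 0.153 and 0.222 FPKM in shaded roots, against 5.93 and 6.34 FPKM in unshaded roots, a change of -2.59 ± 0.34 (adjusted p = 0.001) that was -4.45 with a pseudocount of 0.1. Flavonoid 3'-monooxygenase (Solyc03g115220.4), which adds a hydroxyl group to the flavonoid ring, was the exception, with 9.25 and 9.68 FPKM in shaded roots, against 4.69 and 5.09 FPKM in unshaded roots (0.83 ± 0.17, adjusted p = 0.0041). In the wider phenylpropanoid and lignin group, 10 of 57 genes rose (17.5%) and 13 fell (22.8%), near the 15.9% and 21.4% of all genes tested. Both caffeoyl-CoA O-methyltransferases named by the rule, enzymes of lignin precursors, fell (Solyc09g082660.3, -1.89 ± 0.38, and Solyc02g093230.4, -1.34 ± 0.21), while the 4-coumarate:CoA ligase Solyc12g042460.2, which activates hydroxycinnamic acids, had 14.3 and 13.3 FPKM in shaded roots, against 4.74 and 5.26 FPKM in unshaded roots (1.30 ± 0.23, adjusted p = 0.0024). The phenylpropanoid counts were 4 rises and 8 falls without shaded library 1, 6 and 7 without unshaded library 1 and 4 and 10 without unshaded library 2.

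WRKY genes, transcription factors many of which act in defence, rose in 20 of 51 tested and fell in 1 (median 0.38). Solyc08g081610.4 had 27.6 and 15.3 FPKM in shaded roots, against 5.67 and 4.05 FPKM in unshaded roots (1.89 ± 0.26, adjusted p = 0.0011). WRKY 35 (Solyc02g021680.3) had 46.0 and 31.5 FPKM in shaded roots, against 13.3 and 13.1 FPKM in unshaded roots (1.46 ± 0.21, adjusted p = 0.0012). Rises numbered 9 without shaded library 1 and 12 without unshaded library 2, and the single fall was lost without shaded library 1 or either unshaded library. NAC genes, a plant family with members in senescence and development, rose in 16 of 55 and fell in 8, with 5 falls without unshaded library 1 and none without shaded library 1 or unshaded library 2. NAC domain-containing protein 2 (Solyc04g005610.3) had 84.2 and 88.0 FPKM in shaded roots, against 11.2 and 6.82 FPKM in unshaded roots (3.16 ± 0.25, adjusted p = 0.00021), the largest rise of the family. NAC rises numbered 10 without shaded library 1.

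MYB and bHLH factors, large families with roles in metabolism and cell fate, moved both ways, with 26 rises and 17 falls among 99 MYB genes and 22 rises and 13 falls among 101 bHLH genes. R2R3MYB 27 (Solyc10g083900.2) had 9.55 and 9.07 FPKM in shaded roots, against 0.485 and 0.882 FPKM in unshaded roots (2.62 ± 0.30, adjusted p = 0.00079). R2R3MYB 13 (Solyc06g083900.3) had 1.12 and 0.345 FPKM in shaded roots, against 6.23 and 5.32 FPKM in unshaded roots (-2.0 ± 0.33, adjusted p = 0.002). The calls without shaded library 1 were 8 higher and 10 lower for MYB and 10 higher and 4 lower for bHLH. Without unshaded library 1 they were 16 and 10 for MYB and 14 and 7 for bHLH, and without unshaded library 2 they were 13 and 10 for MYB and 12 and 4 for bHLH.

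Among hormone groups, those of ethylene synthesis and perception and of abscisic acid rose in larger shares than all genes tested, 51.9% and 37.0% against 15.9%. Ethylene, a gaseous hormone of stress and growth, is made by ACC synthase and ACC oxidase and perceived by receptors of the endoplasmic reticulum. In this group 14 of 27 tested genes rose and none fell (median 0.37). The ACC oxidase Solyc02g036350.3 had 21.9 and 33.8 FPKM in shaded roots, against 5.33 and 9.26 FPKM in unshaded roots (1.81 ± 0.32, adjusted p = 0.0024). The receptor described as ETR6 (Solyc09g089610.3) had 1.89 and 2.72 FPKM in shaded roots, against 0.733 and 0.400 FPKM in unshaded roots (1.07 ± 0.21, adjusted p = 0.0039), and its change was 1.87 with a pseudocount of 0.1. The rises numbered 8 without shaded library 1 or without unshaded library 2. Ethylene response factors, the transcription factors at the end of this pathway, rose in 14 of 60 and fell in 7, and factor E.2 (Solyc09g089930.3) had 26.7 and 25.3 FPKM in shaded roots, against 4.04 and 2.81 FPKM in unshaded roots (2.62 ± 0.35, adjusted p = 0.001). The 3 named falls of this family lay at 0.290 to 19.6 FPKM in shaded roots, against 6.14 to 89.6 FPKM in unshaded roots, with replicates that differed widely in each. No fall was called without shaded library 1 and 1 without either unshaded library, while the rises numbered 8 and 9 without unshaded library 1 and unshaded library 2.

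Abscisic acid genes rose in 10 of 27 tested and fell in 1 (median 0.46, or 0.23 without shaded library 2 and 0.29 without unshaded library 1). The receptor PYL4-like (Solyc06g050500.2) had 99.8 and 79.8 FPKM in shaded roots, against 37.4 and 44.7 FPKM in unshaded roots (1.11 ± 0.14, adjusted p = 0.00084). Abscisic acid-insensitive 5-like Solyc01g104650.3, a transcription factor of the response, had 37.1 and 31.3 FPKM in shaded roots, against 18.2 and 17.3 FPKM in unshaded roots (0.90 ± 0.15, adjusted p = 0.0017). The groups did not overlap in either gene, as in every called gene. The rises numbered 5 without shaded library 1 and 6 without unshaded library 1.

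Auxin genes had calls in both directions. Of each group 13.0% to 22.2% rose and 13.0% to 21.1% fell, against 15.9% and 21.4% of all genes tested. The repressors of the Aux/IAA family rose in 4 and fell in 3 of 18 tested, led by IAA26 (Solyc03g121060.4) with 144 and 116 FPKM in shaded roots, against 35.5 and 32.9 FPKM in unshaded roots (1.89 ± 0.18, adjusted p = 0.0005). IAA14 (Solyc09g083290.3) fell to 170 and 215 FPKM in shaded roots, against 328 and 314 FPKM in unshaded roots (-0.75 ± 0.15, adjusted p = 0.0039). SAUR genes, small auxin-induced growth proteins, rose in 6 and fell in 6 of 46, and the abundant SAUR 61 (Solyc06g072650.1) had 529.5 and 347 FPKM in shaded roots, against 187 and 204 FPKM in unshaded roots (1.13 ± 0.22, adjusted p = 0.0034). GH3 and transport genes rose in 4 and fell in 4 of 19. GH3 enzymes couple auxin to amino acids, and Solyc05g050280.3 had 9.94 and 13.3 FPKM in shaded roots, against 5.06 and 4.18 FPKM in unshaded roots (1.16 ± 0.20, adjusted p = 0.0023). Without shaded library 1 the calls were 2 higher and 3 lower for SAUR and 2 higher and none lower for GH3 and transport. Without unshaded library 1 they were 3 and 2 for SAUR and 3 and none for GH3 and transport, and without unshaded library 2 they were 2 and 4 for SAUR and 2 and 1 for GH3 and transport.

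Of cytokinin genes tested 17.1% rose and 14.6% fell, and of jasmonate genes 21.7% and 17.4%, against 15.9% and 21.4% of all genes. Gibberellin genes rose in 6 (23.1%) and fell in 8 (30.8%) of 26. Gibberellin-regulated protein 3 (Solyc02g083870.3), a small cysteine-rich peptide, had 1.55 and 11.1 FPKM in shaded roots, against 40 and 57.3 FPKM in unshaded roots (-3.14 ± 0.53), or -2.01 without shaded library 1. A gibberellin 2-beta-dioxygenase (Solyc10g005360.4), an enzyme that inactivates the hormone, had 4.18 and 5.59 FPKM in shaded roots, against 1.76 and 1.51 FPKM in unshaded roots (1.15 ± 0.21, adjusted p = 0.0029). Cytokinin genes rose in 7 and fell in 6 of 41, and cytokinin oxidase 2 (Solyc10g017990.2), which breaks cytokinins down, had 24.0 and 15.3 FPKM in shaded roots, against 2.82 and 3.96 FPKM in unshaded roots (2.21 ± 0.38, adjusted p = 0.0022). Jasmonate genes rose in 5 and fell in 4 of 23, with the repressor Jasmonate ZIM domain protein g (Solyc06g068930.2) at 43.0 and 30.8 FPKM in shaded roots, against 16.4 and 10.5 FPKM in unshaded roots (1.40 ± 0.20, adjusted p = 0.0011). Without shaded library 1 the rises and falls numbered 3 and 4 for gibberellin, 5 and 3 for cytokinin and 4 and 1 for jasmonate. Without unshaded library 1 they numbered 3 and 7, 6 and 3, and 5 and 2, and without unshaded library 2 they numbered 2 and 4, 5 and 2, and 4 and 2. Without shaded library 2 the falls numbered 4 for cytokinin and 7 for jasmonate.

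Autophagy, the recycling of cell contents in the vacuole, had 12 rises and 1 fall among 19 tested genes (median 0.50). Solyc08g078820.3 had 202 and 159 FPKM in shaded roots, against 101 and 87.7 FPKM in unshaded roots (0.92 ± 0.17, adjusted p = 0.0031), and Solyc01g068060.4 had 137 and 93.6 FPKM in shaded roots, against 62.6 and 58.7 FPKM in unshaded roots (0.89 ± 0.18, adjusted p = 0.0039). Both shaded libraries were above both unshaded ones in each, as in every gene called higher. Rises numbered 4 without shaded library 1 and 6 without either unshaded library. Of the 4 dormancy and auxin-repressed genes tested, a family known as markers of arrested growth in buds, 3 rose, among them the abundant Solyc02g077880.3 with 1864 and 1450 FPKM in shaded roots, against 655 and 654 FPKM in unshaded roots (1.33 ± 0.20, adjusted p = 0.0015). That gene alone kept its call without shaded library 1 or either unshaded library.

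Amino acid remobilization genes, which break amino acids down or move their nitrogen, rose in 12 of 31 tested and fell in 4. A 2-oxoisovalerate dehydrogenase subunit (Solyc04g063350.3), of branched-chain amino acid breakdown, had 13.7 and 11.5 FPKM in shaded roots, against 1.84 and 1.67 FPKM in unshaded roots (2.30 ± 0.49, adjusted p = 0.0053). Glutamate dehydrogenase (Solyc06g033860.2) had 15.6 and 5.11 FPKM in shaded roots, against 1.59 and 1.13 FPKM in unshaded roots (2.1 ± 0.38), or 1.38 without shaded library 1. Asparagine synthetase (Solyc04g055200.3), which stores nitrogen in asparagine, fell to 7.70 and 14.7 FPKM in shaded roots, against 33.5 and 37.4 FPKM in unshaded roots (-1.64 ± 0.26, adjusted p = 0.0016). Falls in the group numbered 2 without shaded library 1 or unshaded library 1.

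Nitrogen uptake and assimilation genes rose in 8 of 42 tested and fell in 12. High-affinity nitrate transporter 3.2 (Solyc03g112100.3), named for a partner protein of nitrate uptake, had 329 and 196 FPKM in shaded roots, against 121 and 111 FPKM in unshaded roots (1.13 ± 0.21, adjusted p = 0.0028). An ammonium transporter (Solyc10g076480.2) had 12.2 and 9.42 FPKM in shaded roots, against 5.11 and 3.85 FPKM in unshaded roots (1.11 ± 0.18, adjusted p = 0.0017). Nitrate reductase (Solyc11g013810.3), the first enzyme of nitrate assimilation, had 85.5 and 138 FPKM in shaded roots, against 263 and 258 FPKM in unshaded roots (-1.25 ± 0.40, adjusted p = 0.031), but its call was lost without shaded library 1 or either unshaded library. Phosphate and SPX genes rose in 7 (17.9%) and fell in 9 (23.1%) of 39, near the 15.9% and 21.4% of all genes tested. Phosphate transporter 1 (Solyc09g090070.1) had 374 and 239 FPKM in shaded roots, against 147 and 114 FPKM in unshaded roots (1.20 ± 0.23, adjusted p = 0.0034). The rises and falls without shaded library 1 numbered 4 and 5 for nitrogen and 2 and 2 for phosphate. Without unshaded library 1 they numbered 4 and 4 and 3 and 4, and without unshaded library 2 they numbered 6 and 6 and 3 and 4.

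Sugar genes had calls in both directions, to be read against 15.9% higher and 21.4% lower of all genes tested. Sugar transporters rose in 5 (17.9%) and fell in 5 (17.9%) of 28. Sucrose synthases and invertases rose in 2 (9.09%) and fell in 5 (22.7%) of 22, and trehalose genes rose in 4 (23.5%) and fell in 2 (11.8%) of 17. Sucrose synthase (Solyc07g042550.3), which splits imported sucrose, had 529 and 626 FPKM in shaded roots, against 318 and 279 FPKM in unshaded roots (0.95 ± 0.16, adjusted p = 0.0021). Trehalose-6-phosphate synthase 1 (Solyc07g006500.3), whose product signals sucrose status, had 75.9 and 69.2 FPKM in shaded roots, against 31.4 and 30.4 FPKM in unshaded roots (1.20 ± 0.22, adjusted p = 0.0025). An acid beta-fructofuranosidase (Solyc08g079080.5), an invertase, had 0.867 and 11.2 FPKM in shaded roots, against 31.1 and 27.2 FPKM in unshaded roots (-2.66 ± 0.61, adjusted p = 0.0073), or -1.31 without shaded library 1 and -4.01 without shaded library 2. Without shaded library 1 the rises and falls numbered 2 and 1 for sugar transport, 2 and 1 for sucrose synthases and invertases and 2 and none for trehalose genes. Without unshaded library 1 they numbered 1 and 3, 2 and 1, and 2 and none, and without unshaded library 2 they numbered 4 and 2, 2 and 1, and 4 and 1. Trehalose falls numbered 4 without shaded library 2.

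Defence and detoxification genes split. Pathogenesis-related genes fell in 30 of 76 tested and rose in 9 (median -0.46), yet rises included abundant members. PR-1 (Solyc07g006710.2), a marker of salicylic acid responses in other settings, had 233 and 194 FPKM in shaded roots, against 35.8 and 32.7 FPKM in unshaded roots (2.60 ± 0.49, adjusted p = 0.003). A thaumatin-like gene (Solyc03g118780.3) had 7.16 and 33.6 FPKM in shaded roots, against 87.1 and 97.0 FPKM in unshaded roots (-2.47 ± 0.51, adjusted p = 0.0047), or -1.43 without shaded library 1. Falls numbered 17 without shaded library 1 and 19 without unshaded library 2. Proteinase inhibitors, anti-herbivore proteins, rose in 7 of 22 and fell in 3 (median 0.63), with an ethylene-responsive proteinase inhibitor (Solyc08g080630.4) at 174 and 150 FPKM in shaded roots, against 27.3 and 23.3 FPKM in unshaded roots (2.64 ± 0.21, adjusted p = 0.00021). Proteinase inhibitor rises numbered 4 without shaded library 1, and 1 fall was called without shaded library 1 or either unshaded library.

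Cytochrome P450 genes, oxidases of specialized metabolism, rose in 28 and fell in 24 of 116, and glutathione S-transferases, which detoxify by adding glutathione, rose in 12 and fell in 6 of 52. The largest P450 rise was in Solyc04g071780.3, with 22.8 and 14.9 FPKM in shaded roots, against 1.78 and 0.710 FPKM in unshaded roots (3.16 ± 0.33, adjusted p = 0.00056). The glutathione S-transferase Solyc02g081340.3 fell to 1.98 and 1.04 FPKM in shaded roots, against 15.9 and 16.9 FPKM in unshaded roots (-2.82 ± 0.34, adjusted p = 0.00082). Rises and falls without shaded library 1 were 16 and 15 for P450 genes and 7 and 3 for glutathione S-transferases. They were 20 and 13 and 11 and 3 without unshaded library 1, and 15 and 15 and 7 and 8 without unshaded library 2.

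Heat shock proteins, chaperones of protein folding, fell in 17 (23.3%) and rose in 9 (12.3%) of 73, against 21.4% and 15.9% of all genes. These shares were near those of all genes tested. Their median was -0.21, or -0.08 without unshaded library 1 and -0.41 without unshaded library 2. Heat shock protein 90.1 (Solyc03g032230.1) had 0.531 and 2.90 FPKM in shaded roots, against 9.94 and 7.21 FPKM in unshaded roots (-1.96 ± 0.35, adjusted p = 0.0024), or -1.28 without shaded library 1. Aquaporins, the water channels of membranes, fell in 9 and rose in 2 of 33. The tonoplast channel described as intrinsic protein 1.3 (Solyc10g083880.2) had 1826 and 1173 FPKM in shaded roots, against 522 and 520 FPKM in unshaded roots (1.49 ± 0.30, adjusted p = 0.0039), while the plasma membrane channel 2.9 (Solyc10g055630.2) had 155 and 195 FPKM in shaded roots, against 420 and 414 FPKM in unshaded roots (-1.25 ± 0.15, adjusted p = 0.00079). Heat shock proteins had 2 rises and 10 falls, and aquaporins 1 rise and 5 falls, without shaded library 1. The rises of heat shock proteins numbered 6 without shaded library 2, 4 without unshaded library 1 and 2 without unshaded library 2, and aquaporins had 6 falls without unshaded library 1, 2 without unshaded library 2, and 1 rise without either.

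The response at 24 h was set against that at 12 h, the time point before it, which used other libraries. At 12 h 4876 genes (23.9%) were called, of which 3793 were called in the same direction at 24 h. These made up 49.8% of the 24 h calls and 77.8% of the 12 h calls, 21 genes were called in opposite directions, and 3797 genes were called at 24 h and not at 12 h. A call at 1 time point and not at the other does not show that the effects differ, and the difference of the effects was therefore tested.

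The shade effect differed between 24 h and 12 h in 29 genes (0.142%), with 25 more positive and 4 more negative at 24 h, and 1757 genes had an unadjusted p under 0.05. Of these 29 genes, 24 also differed between the shaded roots of 24 h and 12 h, and 2 between the unshaded roots. A rise at 24 h that was not called as a rise at 12 h was found in 24 of them, and calls of opposite sign in 12. The count of 29 was lower with the replicate number added to the fit across time points. No gene was called with it added within time points, as given below under processing. Without 1 of the 24 h libraries the count was 7 (shaded library 1), 599 (shaded library 2), 10 (unshaded library 1) and 7 (unshaded library 2), and without 1 of the 12 h libraries it was 2 (shaded library 1), 8 (shaded library 2), 3 (unshaded library 1) and 104 (unshaded library 2).

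The genes with the largest differences included a gene described as NIT2, a pectinesterase and a protein described as unknown. What these genes encode was read from their descriptions alone. Solyc08g007430.2, described as NIT2, the name of a nitrilase, had 69.9 and 42.0 FPKM in shaded roots at 24 h, against 18.8 and 17.8 FPKM in unshaded roots, and its change was 1.52 at 24 h and -1.95 at 12 h (difference 3.47, adjusted p = 0.042), a difference whose call was lost without the 24 h shaded library 1 or either 24 h unshaded library. A pectinesterase (Solyc02g081990.3), an enzyme that removes methyl groups from pectin, had 37.5 and 24.3 FPKM in shaded roots at 24 h, against 6.12 and 6.85 FPKM in unshaded roots, with changes of 2.06 at 24 h and -1.28 at 12 h (difference 3.34, adjusted p = 0.0093). Solyc03g096430.1, described as unknown protein, was at 843 and 589 FPKM in shaded roots at 24 h, against 105 and 145 FPKM in unshaded roots (2.50 at 24 h and -0.79 at 12 h, adjusted p of the difference 0.0093). In each the 24 h shaded libraries were above both unshaded ones, as in every gene called higher at 24 h, with shaded library 1 the higher.

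A pair of genes outside the naming rule was picked after their values were seen because both assimilate ammonium. The gene described as glutamine synthase, Solyc04g014510.3, had 2293 and 1304 FPKM in shaded roots at 24 h, against 536 and 507 FPKM in unshaded roots (1.73 ± 0.25), and its 12 h change was -1.44 (adjusted p of the difference 0.013). Glutamine synthetase Solyc11g011380.2 had 421 and 380 FPKM in shaded roots, against 323 and 294 FPKM in unshaded roots (0.37 ± 0.12), and its 12 h change was -0.80 (adjusted p of the difference 0.038). The pathogenesis-related 5-like gene Solyc08g080670.1 was higher at both times, by 3.62 at 24 h and 1.87 at 12 h (adjusted p of the difference 0.019). On the negative side, the sugar transporter described as ERD6 (Solyc01g080680.3) was at 9.66 and 13.1 FPKM in shaded roots at 24 h, against 17.8 and 17.4 FPKM in unshaded roots, with changes of -0.60 at 24 h and 1.44 at 12 h (adjusted p of the difference 0.016). The call of this difference was lost without the 24 h shaded library 1 or either 24 h unshaded library. Solyc02g070850.1, without a product description, was listed at 0 in all 4 libraries of 24 h and had a 12 h change of 3.54, and with a pseudocount of 0.1 its difference lost its call.

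**Figure D4:**
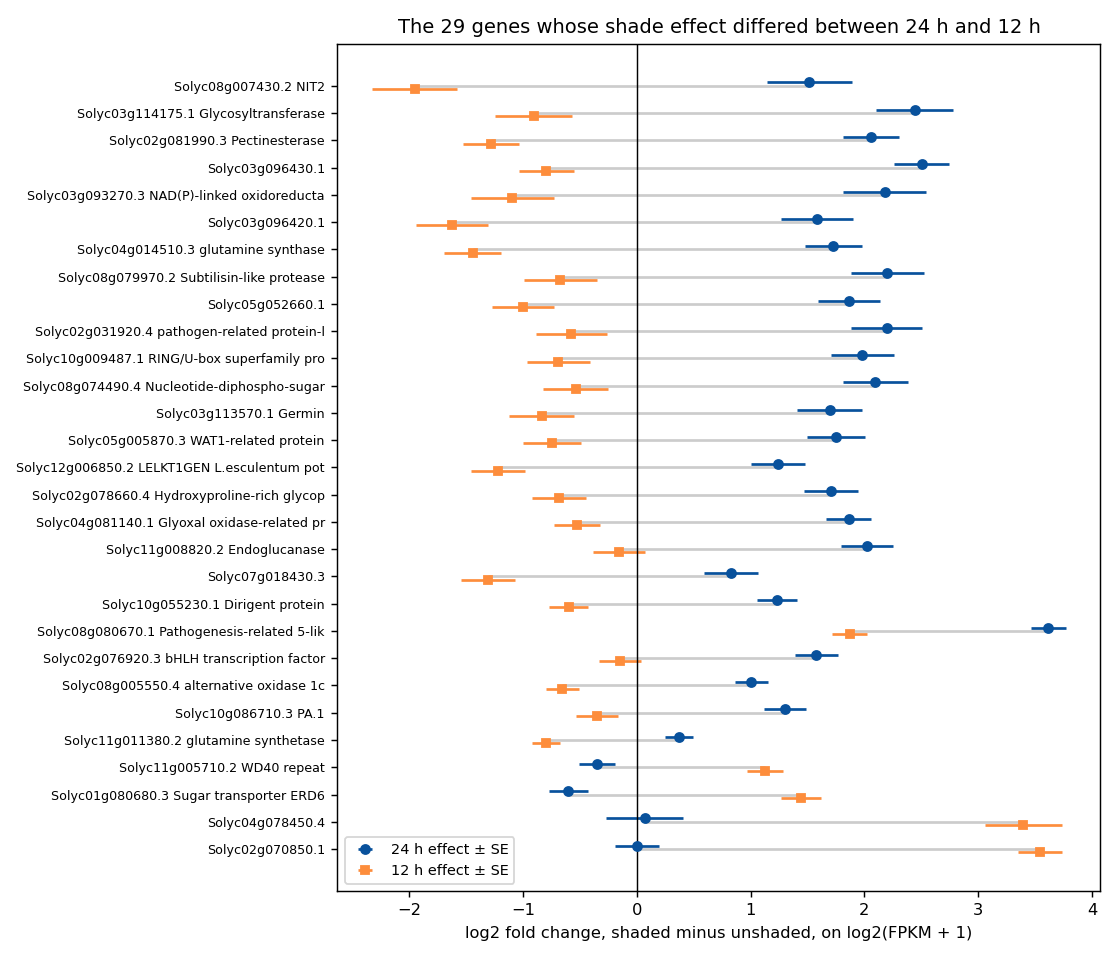
Log2 fold change (shaded minus unshaded, on log2(FPKM + 1), with standard errors) at 24 h in blue and at 12 h in orange for the 29 genes whose shade effect differed between these times. In the upper rows the 24 h effect lies to the right of 0 and the 12 h effect mostly to its left, and in the 4 lowest rows the 12 h effect is the more positive.

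The extensins, whose median was 0.62 at 3 h and 0.42 at 6 h, had moved most between 12 h and 24 h as a group. Their median was 1.54 at 24 h and -0.19 at 12 h, with 19 rises at 24 h against 1 at 12 h. Yet none of the 35 passed the test of the difference. For Solyc01g005850.2 the difference was 3.74 (adjusted p = 0.18) and for Solyc04g071080.2 it was 3.34 (adjusted p = 0.16). The xyloglucan endotransglucosylase Solyc12g007260.2 likewise had changes of 4.11 at 24 h and 0.03 at 12 h, with an adjusted p of 0.13 for the difference. By comparison, the median was -0.71 at 24 h and -0.46 at 12 h for ribosomal proteins, -1.17 and -0.83 for histones, 0.85 and 0.77 for clock genes and -1.32 and -1.35 for flavonoid genes.

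**Figure D5:**
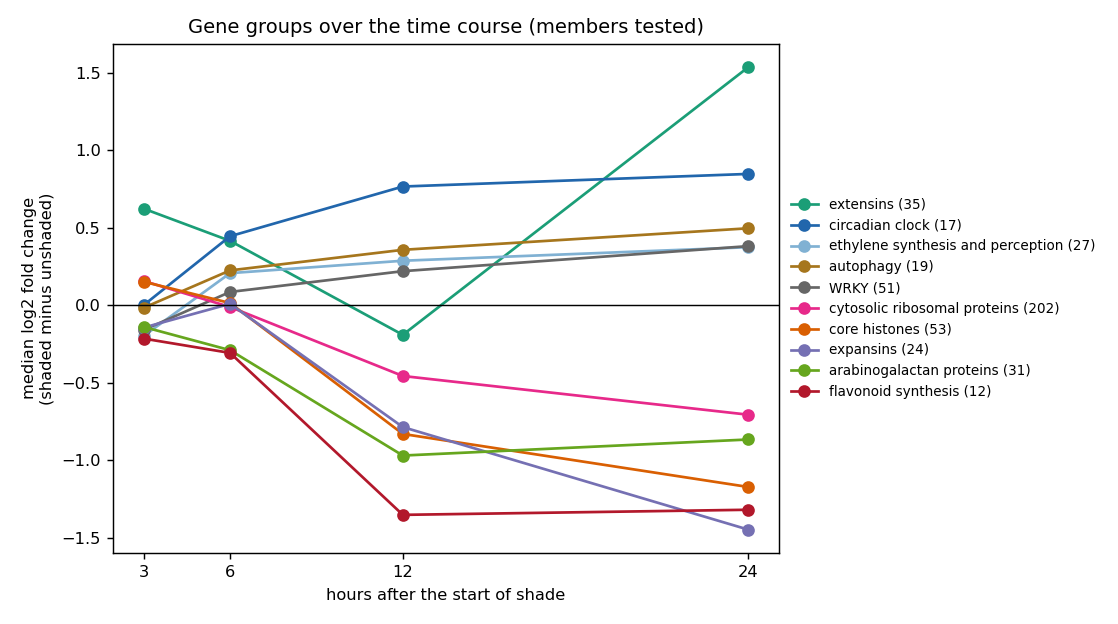
Median log2 fold change (shaded minus unshaded) of 10 gene groups at 3 h, 6 h, 12 h and 24 h, with the number of tested members in parentheses. Ribosomal protein and histone genes lie near or above 0 at 3 h and 6 h and below 0 at 12 h and 24 h, and extensins fall below 0 at 12 h and reach 1.54 at 24 h.

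Against the early response the 24 h effect stood apart in far more genes. It differed from the mean of the 3 h and 6 h effects in 3765 of the 20413 genes tested (18.4%), and 3571 of them were also called at 24 h itself. The effect was more positive at 24 h in 1254 of the 20413 genes and more negative in 2511. The group counts that follow are to be read against these counts, each in its own direction. Of the 202 ribosomal protein genes 123 were more negative at 24 h and 1 more positive, and of the 53 histone genes 43 were more negative and 1 more positive. Expansins were more negative in 9 of 24, arabinogalactan proteins in 11 of 31 and cyclins in 18 of 37, while WRKY genes were more positive in 13 of 51. Of the 35 extensins, 4 were more positive and 2 more negative at 24 h. The count over all genes was 465 without the 24 h shaded library 1, 1416 without the 24 h unshaded library 1 and 53 without the 24 h unshaded library 2. Among the earlier libraries it was 2205 without the 3 h shaded library 1, 2359 and 2012 without the 3 h unshaded libraries 1 and 2, and 2435 and 1945 without the 6 h shaded libraries 1 and 2.

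The shaded and the unshaded roots were also each compared between 24 h and 12 h. In shaded roots 449 genes (2.2%) changed, 243 higher and 206 lower at 24 h, and in unshaded roots 2 genes (0.0098%) changed, both lower at 24 h, with 1540 at an unadjusted p under 0.05. Solyc03g096430.1 was one of the genes that fell in unshaded roots. The shaded count was 33 without the 24 h shaded library 1, 1416 without the 24 h shaded library 2, 42 and 51 without the 12 h shaded libraries 1 and 2, and 1 in a fit to those groups alone. The unshaded count was 6 and 4 without the 24 h unshaded libraries 1 and 2 and 40 without the 12 h unshaded library 2. Whether shaded and unshaded roots changed differently between these times is the test of the difference given above, which called 29 genes.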

How the data were processed

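Root RNA from tomato seedlings was sequenced with Illumina libraries in 8 groups of 2 (shaded and unshaded at 3 h, 6 h, 12 h and 24 h). The authors deposited 1 FPKM table with a product description for each gene, per the file headers, and the submitters' processing notes name Cufflinks 2.1.1. The tomato genome build, the aligner, strand handling and the splitting of reads between similar genes are not given in the sources used here. The deposited values are FPKM and hold no counts, so absolute depth is unknown and no counting interval can be given; relative depth was read from the steps between low values.

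Genes with a mean of at least 1 FPKM over the 16 libraries were tested with limma 3.58.1 (R 4.3.3) on log2(FPKM + 1), with 1 mean per group, a trended prior and Benjamini-Hochberg adjustment over all 20413 genes at 0.05. The effects tested were shaded minus unshaded at 24 h, its difference from the 12 h effect and from the mean of the 3 h and 6 h effects, and 24 h minus 12 h within each light condition. Of the tested genes, 2945 have no product description. Python 3.11.15, pandas 2.3.3, numpy 2.4.6 and matplotlib 3.10.9 were used. In simulated data for the 24 h comparison with 200 of 20413 genes changed by 1 on the log2 scale, 65.5% were recovered and 5.76% of calls were false. For the 24 h against 12 h difference the figures were 29.5% and 4.84%, and for the difference from the mean of 3 h and 6 h they were 43% and 8.51%, above the 5% aimed at. The simulated noise was independent between libraries and had 1 spread per gene in all groups. The real data had 37.3% of genes called at 24 h, and the likeness of replicates differed between groups, so these rates need not hold for them.

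The 45 gene lists were built from words in the descriptions. The comparison and the lists were chosen with earlier results of these data known. Named genes were the 10 largest rises and 10 largest falls with a description and no overlap between groups, the 2 largest each way without one, up to 3 each way listed at 0 in 1 group, up to 3 called members each way of each list, and the 5 largest differences each way between 24 h and 12 h; any other is said to be chosen after its values were seen. Alternatives were a pseudocount of 0.1, no filter, a minimum of 5 FPKM, 2 rescalings, a fit to the groups compared alone, replicate blocks and leaving out each library. The Arabidopsis table of the series was not used here.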

Additional observations from a re-analysis of the deposited data

Results flagged for a closer look

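The shade effect differed between 24 h and 12 h in 29 genes, and between 24 h and the mean of 3 h and 6 h in 3765 genes, by the tests of the difference itself.

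Among the 29 genes, 12 were called at both times with opposite signs. The difference of the log2 effects, 24 h minus 12 h, was 3.47 for NIT2 (Solyc08g007430.2), 3.34 for a pectinesterase (Solyc02g081990.3) and 3.17 for glutamine synthase (Solyc04g014510.3). It was 1.17 for glutamine synthetase (Solyc11g011380.2). Among proteins described as unknown it was 3.30 for Solyc03g096430.1, 3.21 for Solyc03g096420.1, 2.86 for Solyc05g052660.1 and 2.14 for Solyc07g018430.3. A potassium channel gene (Solyc12g006850.2) differed by 2.46, a dirigent protein (Solyc10g055230.1) by 1.83 and alternative oxidase 1c (Solyc08g005550.4) by 1.66. The ERD6 sugar transporter (Solyc01g080680.3) was the only one of the 12 with a negative difference, -2.05. The potassium channel gene Solyc12g006850.2 had 22.2 and 13.7 FPKM in shaded roots at 24 h, against 6.90 and 6.70 FPKM in unshaded roots.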

How the results depend on the processing

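The 7611 calls at 24 h fell to 4164 (1966 higher, 2198 lower) in a fit to the 24 h groups alone, and lay between 3339 and 7544 when 1 library was left out (1388 to 3079 higher, 1951 to 4465 lower, 1234 to 3353 changed at least 2-fold). Other settings gave 6728 to 7639 calls. The excess of falls depended on scaling, with 3243 higher and 4368 lower without rescaling. Median-of-ratios scaling gave 3720 higher and 3919 lower, and scaling to equal sums gave 2937 and 4508. The 29 genes of the 24 h against 12 h difference became 16 without a filter and 2 to 599 without 1 library. The 3765 of the early comparison ranged from 53 to 4862. The 449 of shaded roots became 1 in a fit to the groups compared and 33 to 1416 without 1 library, and the 2 of unshaded roots 5 without a filter, 0 in a fit to the groups compared (1423 at an unadjusted p under 0.05, limma) and 2 to 40 without 1 library. The labels number replicates and do not say whether same-numbered libraries were handled as pairs. Correlations of their deviations across genes were -0.004 to 0.094, which cannot decide it. With a replicate block across time points 7499 genes were called at 24 h and 12 for the 24 h against 12 h difference, and with a replicate block within time points 6728 and 0 (1841 at an unadjusted p under 0.05, limma). A block within time points could not be fitted for changes within 1 light condition. No named gene reversed its direction in any of these fits, and 354 of 1220 gene results lost their call without 1 library, as did 209 of 2197 under other settings. Of the list medians, 42 of 180 moved by more than the spread between replicates without 1 library and 37 of 360 under other settings. The causes were not tested. With 2 libraries per group and no counts, neither the share of technical spread nor the precision of low values is known, and shaded library 1 carries the larger share of many differences.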

Other observations

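A short run of identifiers held several genes that fell. Of the 12 identifiers from Solyc07g043390 to Solyc07g043500, 4 were listed at 0 in all 16 tomato libraries, 7 were tested, and all 7 were called lower in shaded roots at 24 h. Of all genes tested, 21.4% fell, but this run was picked after its falls were seen, so its count cannot be read against that share. Reads of similar members may have been split between them, which was not tested. The 7 are described as 3 glycosyltransferases, a 2-oxoglutarate-dependent dioxygenase, a cytochrome P450 and 2 genes without a product description. The dioxygenase Solyc07g043420.3 had 94.6 and 248 FPKM in shaded roots, against 759 and 780 FPKM in unshaded roots (-2.32 ± 0.44). Shaded library 1 lay far below shaded library 2 in these genes, and both lay below the unshaded libraries.

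An endoglucanase and a germin were among the 29 genes whose effect differed between 24 h and 12 h. The endoglucanase (Solyc11g008820.2) had 32.2 and 23.4 FPKM in shaded roots at 24 h, against 6.60 and 5.47 FPKM in unshaded roots, with changes of 2.02 at 24 h and -0.16 at 12 h. The germin (Solyc03g113570.1) had 28.0 and 20.2 FPKM in shaded roots at 24 h, against 6.64 and 6.69 FPKM in unshaded roots, with changes of 1.69 and -0.84. Both genes were also picked after their values were seen.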
